A study of Mus musculus with 6 samples.

Results

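The 10 genes described here encode lipoprotein lipase (LPL), the proteins that control it, and the carriers that bring fatty acids into cells: Lpl, Gpihbp1, Angptl4, Lmf1, Vldlr, Cd36, Fabp4, Fabp5, Slc27a1 and Slc27a4. They were chosen by gene symbol from the 21456 genes of the deposited table, and all 10 were found and passed the filter on low values. The study sequenced mRNA from the WATs of chow-fed mice, 3 control and 3 Ntsr2 AKO. Control mice were Ntsr2 flox/flox. Ntsr2 AKO mice were Adipoq-cre::Ntsr2 flox/flox, so both groups carried the floxed alleles, and the Cre was driven by Adipoq, which is active in brown as well as white adipocytes. Each mouse is given by its genotype and by the number 3, 4 or 5 of its label. The fat depot, age and sex were not given for this experiment in the sources used here, and nothing in the labels states how the 6 libraries relate to separate animals beyond their titles, so p-values measure the spread between these libraries.

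LPL is made by adipocytes and muscle cells and hydrolyses the triglycerides of circulating lipoproteins at the capillary wall. LMF1 helps LPL fold in the endoplasmic reticulum, GPIHBP1 carries it across the endothelial cell and holds it in the capillary lumen, and ANGPTL4 inactivates it, in adipocytes largely before it leaves the cell. VLDLR binds triglyceride-rich lipoproteins. The fatty acids that are set free are taken up with the help of CD36, trapped by the fatty acid transport proteins FATP1 (Slc27a1) and FATP4 (Slc27a4) through their acyl-CoA synthetase activity, and bound in the cytosol by FABP4 and FABP5.

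The values are read counts scaled by 1 size factor per library, here called normalized counts. The libraries held 60405373 to 66098226 recovered reads in control mice and 54085088 to 56268725 in Ntsr2 AKO mice. Ntsr2, the targeted gene, had normalized counts of 83.8, 64.0 and 152.5 in control mice and 3.10, 8.29 and 0 in Ntsr2 AKO mice. The adipocyte markers (10 of 10 in the table) summed to 1909950 to 2676190 in control and 2084340 to 2181830 in Ntsr2 AKO mice, with Adipoq at 163803 or more in every mouse. Of 6 mesothelial markers 5 were in the table, with sums of 157.3 to 470.4 in control and 142.0 to 176.5 in Ntsr2 AKO mice. Upk3b and Wt1 were at or near 0. Lrrn4 was 119.6, 57.8 and 52.8 in control against 108.4, 105.7 and 71.9 in Ntsr2 AKO mice. It overlapped between the groups (log2 fold change 0.39, limma adjusted p = 0.807). Krt19 went the other way, with 134.4, 412.7 and 84.4 in control against 68.1, 32.1 and 67.8 in Ntsr2 AKO mice. It did not overlap (log2 fold change -1.64, limma adjusted p = 0.575), a pattern in this direction found in 8.16% of all genes tested. The 6 brown adipocyte markers summed to 3529 to 7552 in control and 6543 to 11464 in Ntsr2 AKO mice. Ucp1 did not exceed 55.7 and Elovl3 did not exceed 23.3. Cidea was 2134, 4167 and 3345 in control against 4513, 5122 and 6410 in Ntsr2 AKO mice. It did not overlap between the groups (log2 fold change 0.77, limma adjusted p = 0.558), a pattern in this direction found in 6.82% of all genes tested. Cox7a1 (log2 fold change -0.32), Cox8b (0.29) and Dio2 (0.20) overlapped between the groups. Control 3 had the highest sum of lymphocyte markers, 1435 against 221 to 415 in the other mice. Its sum of mammary epithelium markers was 139, against 0 to 7.22 in the others. Lep, an adipocyte marker, was 67722 in control 3 and 5997 to 17222 in the others. The part of these cells in the values below was not tested. Control 5 stood apart in skeletal muscle, with the 10 muscle markers summing to 2580730. They summed to 1021 and 514 in controls 3 and 4, 1563 in AKO 3, 86000 in AKO 4 and 189526 in AKO 5. Where the value of 1 of the 10 genes described here differs by much without the muscle-bearing libraries, it is given. For the further genes of the pathway that omission was not computed.

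Both carrier families have members with related sequences, and how far a pair can be told apart in reads bears on every value below. The most alike 60 coding bases of each pair are printed for that reason, 5' to 3', with the bases that differ within the pair in capitals. The pairs come from the transcripts of GENCODE release M21 on GRCm38, the build that the submitters' notes call mm10.

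Fabp4: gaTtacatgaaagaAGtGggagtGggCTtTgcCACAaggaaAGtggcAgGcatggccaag
Fabp5: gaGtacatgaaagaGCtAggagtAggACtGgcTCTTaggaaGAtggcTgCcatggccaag
Slc27a1: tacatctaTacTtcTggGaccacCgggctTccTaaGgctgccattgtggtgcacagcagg
Slc27a4: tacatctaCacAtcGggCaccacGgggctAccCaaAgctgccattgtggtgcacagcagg

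Fabp4 (chr3:10204088-10208576, minus strand) and Fabp5 (chr3:10012548-10016607, plus strand) lie 187480 bases apart on 1 chromosome. Their windows span coding bases 55 to 114 and 61 to 120, both across the junction of exons 1 and 2, and 44 of 60 bases were identical. Over the whole coding sequence 59.6% of 408 aligned positions were identical, and the longest identical run was 12 bases. The windows of Slc27a1 (chr8:71568882-71587302, plus strand; coding bases 736 to 795, exons 6 and 7) and Slc27a4 (chr2:29802634-29817522, plus strand; coding bases 727 to 786, exons 5 and 6) shared 52 of 60 bases. That pair was 64.8% identical over 1944 positions, with a longest run of 26. These runs cover the coding sequence only. Over the whole of the longest coding transcripts, no 100-base window was found in a transcript of the other gene of the pair.

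Across the longest coding transcript, 8 of the 10 genes had no 100-base window in the transcript of another gene. Fabp5 had 80 of 888 such windows (9.01%), shared with the predicted genes Gm14328 and Gm6166. Neither was in the deposited table, so how reads that match both were assigned is unknown, and the value of Fabp5 is uncertain to that extent. Lpl had 45 of 4016 (1.12%).

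Fabp4 and Lpl were among the most abundant transcripts of the tissue. The 10 genes together took 1.96% to 3.35% of all counts in a mouse, and Fabp4 alone took 0.998% to 1.81%. To compare genes, the normalized count was divided by the length of the longest coding transcript in kilobases. On that scale Fabp4 averaged 965293 over the 6 mice and ranked 3 among 16014 genes with a length, Lpl (chr8:68880491-68907448) averaged 124038 and ranked 25, and Cd36 (chr5:17781690-17888801, minus strand) averaged 44013 and ranked 66. Within each mouse Fabp4 was 7.12 to 9.03 times as high as Lpl, Lpl 1.94 to 3.42 times as high as Cd36, and Cd36 2.83 to 3.75 times as high as the next gene, so the first 3 places held in all 6 mice.

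Slc27a1 (12814 per kb) and Angptl4 (12171 per kb; chr17:33773750-33781830, minus strand) followed and could not be ordered. Their ratio ranged from 0.742 to 1.49 between mice. The range of Angptl4 also overlapped that of Fabp5 (6546 per kb). Gpihbp1 (chr15:75596628-75599481), the endothelial partner of LPL, averaged 2767 per kb, and its lowest mouse lay below the highest mouse of Vldlr (860 per kb; chr19:27216484-27254231). Lmf1 (568 per kb; chr17:25579085-25662826) overlapped Vldlr but not Slc27a4, the lowest of the 10 at 426 per kb. With the length of all exons of a gene merged in place of the longest coding transcript, Slc27a1 changed places with Angptl4 and Lmf1 with Slc27a4, and the other places were kept.

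**Figure D1:**
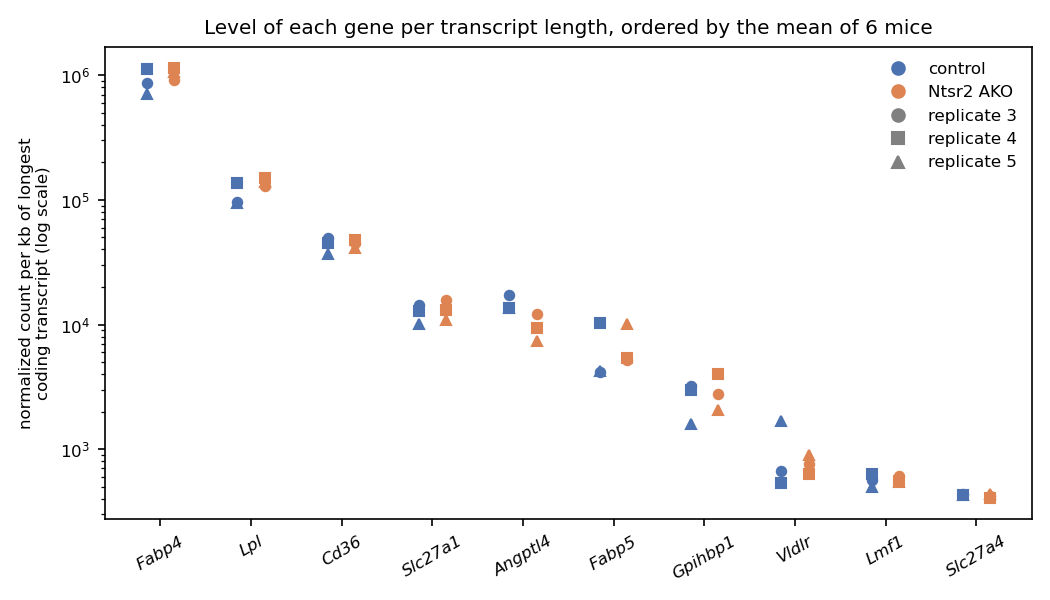
Normalized count per kilobase of the longest coding transcript (y axis, log scale) for each of the 10 genes (x axis), with 1 point for each mouse, control to the left and Ntsr2 AKO to the right. Fabp4, Lpl and Cd36 stand apart from one another, and the points of Slc27a1 and Angptl4 overlap.

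Whether loss of Ntsr2 in adipocytes went with a different expression of these genes was tested with limma on log2(normalized count + 1), over the 16157 genes whose normalized count averaged 10 or more. None of the 10 passed an adjusted p of 0.05, which 1 gene of the table passed (0.00619%), the immediate early gene Egr1, named after its values were seen. On the recovered reads, 0 of the 10 passed by edgeR, where 0% of all genes did. By DESeq2 0 of the 10 passed, where 1.38% of all genes did. Ntsr2 itself, with a log2 fold change of -4.81, did not pass by limma (adjusted p = 0.499) or edgeR (adjusted p = 0.569). It passed by DESeq2 (adjusted p = 0.00012). Failing the limma threshold therefore does not show that a gene is unchanged. At an unadjusted p under 0.05, Angptl4 was the 1 gene of the 10 that passed, in each of the 3 tools. Of all genes, 5.27% passed with lower and 3.08% with higher values in Ntsr2 AKO mice by limma, 8.19% passed by edgeR and 10.6% by DESeq2, so 1 of 10 is near the share of all genes. The log2 fold changes had a median of 0.07, against -0.01 over all genes tested. 7 of the 10 had a positive sign, as did 49.0% of all genes. In bulk tissue, fewer cells of a type and less RNA per cell cannot be told apart, which holds for every difference below.

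**Figure D2:**
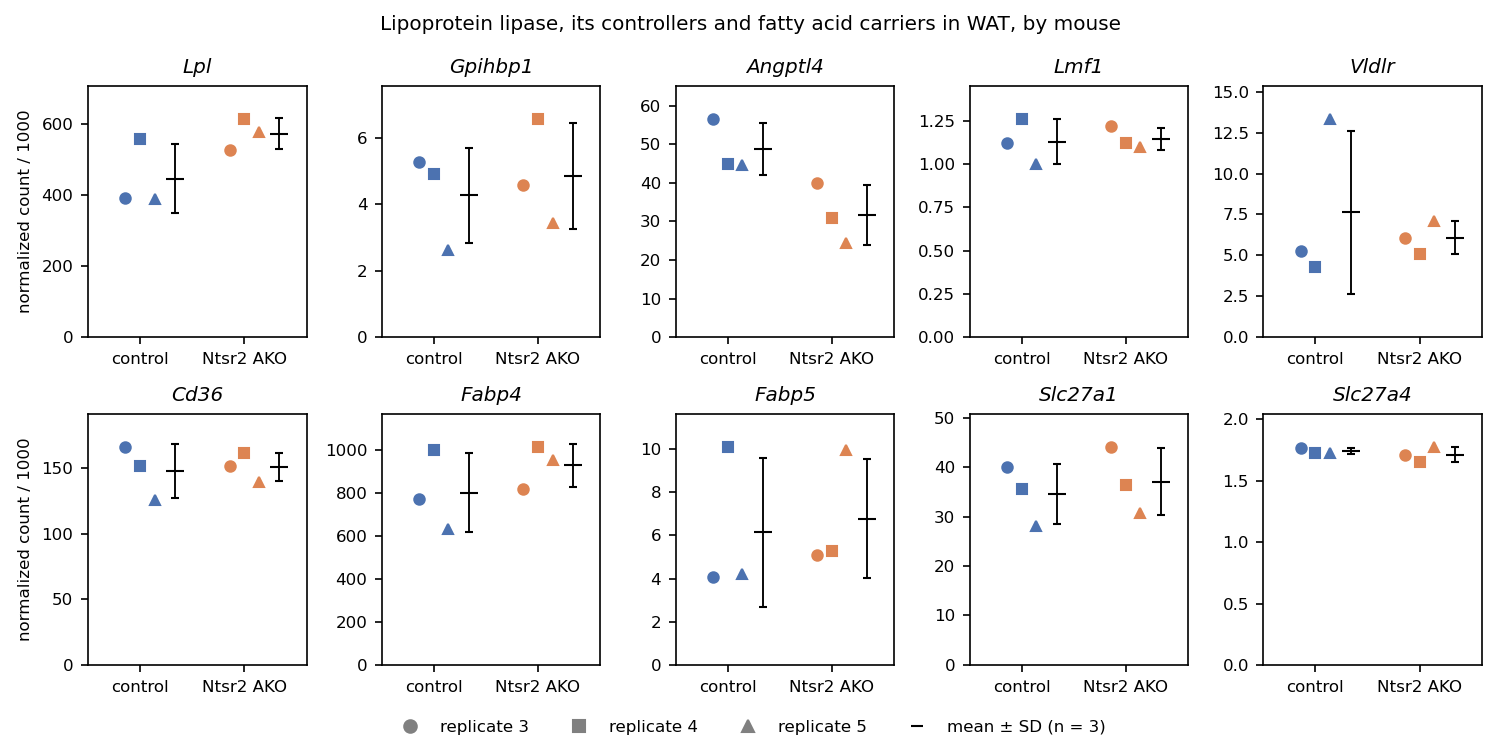
Normalized counts in units of 1000 (y axis, from 0) of each of the 10 genes in each mouse, by genotype, with the mean ± SD of 3 mice beside the points. Angptl4 is the gene of which all Ntsr2 AKO mice lie below all control mice, and Vldlr has 1 control mouse far above the rest.

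Lpl, the enzyme itself, had normalized counts of 392259, 559394 and 389103 in control mice and 528022, 615991 and 577720 in Ntsr2 AKO mice. Control 4 lay within the range of the Ntsr2 AKO mice and the other controls lay below it, so the groups overlapped. The control mean was 446919 ± 97419 and the Ntsr2 AKO mean 573911 ± 44108 (SD, n = 3 each). The log2 fold change was 0.38 ± 0.30 (SE), with a limma adjusted p of 0.752. The 95% interval of the fold, 0.789 to 2.14, runs from well below to well above no difference. Without control 5, AKO 4 and AKO 5, the libraries with most skeletal muscle transcripts, the log2 fold change of Lpl was 0.17, and over the omission of 1 mouse at a time it ranged from 0.29 to 0.55.

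Angptl4, the inhibitor of LPL and a target of nuclear receptors that sense fatty acids, had normalized counts of 56625, 45018 and 44740 in control mice and 39904, 30919 and 24355 in Ntsr2 AKO mice. Every Ntsr2 AKO mouse lay below every control mouse, a pattern found in 8.16% of all genes tested, and the opposite pattern in 6.82%. The means were 48794 ± 6783 and 31726 ± 7806 (SD, n = 3 each). The log2 fold change was -0.64 ± 0.22 (SE), a fold of 0.641 with a 95% interval of 0.450 to 0.914. An unadjusted limma p of 0.021 placed Angptl4 among the genes under 0.05 with lower values in Ntsr2 AKO mice. The adjusted p was 0.557 by limma, 0.604 by edgeR and 0.195 by DESeq2, so the difference did not pass the threshold over all genes. With 1 mouse left out at a time the log2 fold change ranged from -0.82 to -0.47. Among controls 3 and 4 and AKO 3, the libraries with few muscle transcripts, it was -0.34. The highest value lay in control 3, the mouse with most lymphocyte and mammary epithelium transcripts. Without control 3 the log2 fold change was -0.53.

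Lmf1, the LPL maturation factor, varied little: 1123, 1263 and 1003 in control mice and 1219, 1122 and 1099 in Ntsr2 AKO mice. The groups overlapped, the log2 fold change was 0.03 ± 0.14 (SE, limma adjusted p = 0.968), and the 95% interval of the fold was 0.812 to 1.28. Gpihbp1, which anchors LPL in the capillary, had 5274, 4924 and 2640 in control mice and 4578, 6579 and 3429 in Ntsr2 AKO mice. The groups overlapped over most of their range, with the lowest value in control 5 and the highest in AKO 4. Its log2 fold change was 0.20 ± 0.33 (SE, limma adjusted p = 0.887), and it was -0.12 without control 5. The endothelial markers summed to 27744 in control 5 and 28057 in AKO 5, the mice with the lowest Gpihbp1 in their groups, and to 36343 to 42740 in the others, and their part in the value of Gpihbp1 was not tested except through the ratio given below.

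Vldlr, the lipoprotein receptor, had 5278, 4271 and 13348 in control mice and 6060, 5075 and 7098 in Ntsr2 AKO mice. The highest value, in control 5, was 3.13 times the lowest, in control 4, and belonged to the library with most skeletal muscle transcripts. The log2 fold change was -0.15 ± 0.41 (SE, limma adjusted p = 0.934) and turned to 0.34 without control 5. It was -0.48 without control 4, -0.23 with the skeletal muscle score as a covariate, -0.31 by edgeR and -0.32 by DESeq2. The part of muscle transcripts in this value was not tested.

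**Figure D3:**
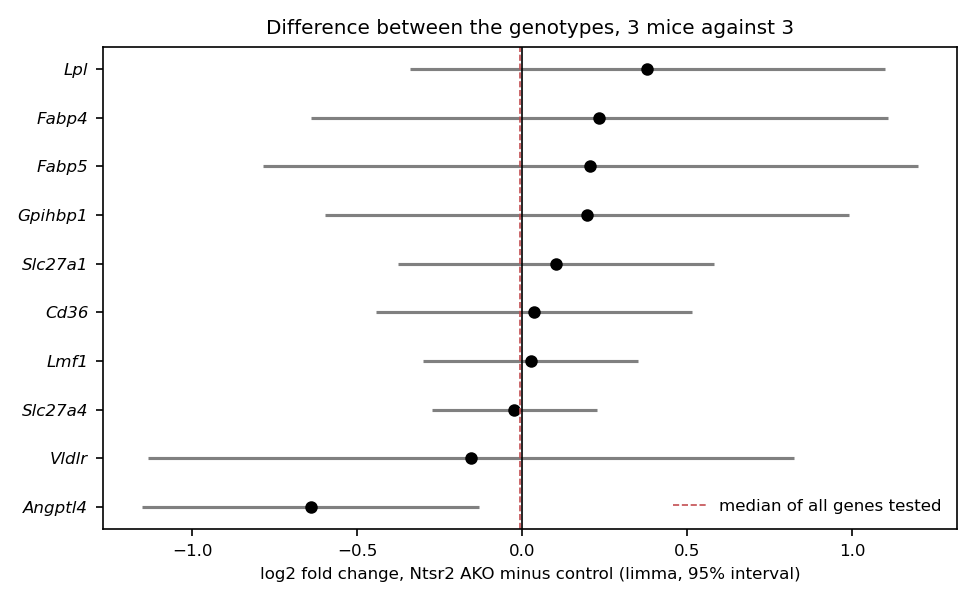
Log2 fold change, Ntsr2 AKO minus control (x axis), of the 10 genes (y axis) from limma on 3 mice against 3, with points for the estimates and lines for the 95% intervals. The interval of Angptl4, from -1.15 to -0.13, is the 1 that excludes 0 before adjustment over all genes, and the dashed line is the median of all genes tested.

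The carriers differed between the genotypes by less than the spread between mice. Cd36, the membrane fatty acid translocase, had normalized counts of 166720, 151965 and 125806 in control mice and 151927, 161481 and 139696 in Ntsr2 AKO mice. The Ntsr2 AKO mice lay inside the range of the control mice. It had a log2 fold change of 0.03 ± 0.20 (SE, limma adjusted p = 0.971), with a 95% interval of the fold of 0.735 to 1.43.

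Fabp4, the main cytosolic carrier of adipocytes, had 771426, 997811 and 632872 in control mice and 819109, 1016140 and 952064 in Ntsr2 AKO mice. Control 4 lay above AKO 3 and AKO 5, so the groups overlapped. Its log2 fold change was 0.23 ± 0.37 (SE, limma adjusted p = 0.877). Without control 5, AKO 4 and AKO 5 it was -0.10. Fabp5, the related carrier that is also abundant in macrophages, had 4087, 10125 and 4212 in control mice and 5094, 5286 and 9963 in Ntsr2 AKO mice. The highest mouse of each group, control 4 and AKO 5, stood well above the rest, and the other values lay between 4087 and 5286. The macrophage markers had their highest sum in those same mice, 103104 in control 4 and 85001 in AKO 5, against 35895 to 63879 in the others, and their part in the value of Fabp5 was not tested. The log2 fold change of Fabp5 was 0.21 ± 0.42 (SE, limma adjusted p = 0.906).

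Slc27a1, the transport protein FATP1, had 40005, 35557 and 28060 in control mice and 44170, 36474 and 30626 in Ntsr2 AKO mice. The groups overlapped over most of their range, with a log2 fold change of 0.10 ± 0.20 (SE, limma adjusted p = 0.904). Without control 5, AKO 4 and AKO 5 it was 0.23. Slc27a4, or FATP4, was the steadiest of the 10, with 1767, 1727 and 1730 in control mice and 1712, 1650 and 1779 in Ntsr2 AKO mice. Its highest value was 1.08 times its lowest. The log2 fold change was -0.02 ± 0.10 (SE, limma adjusted p = 0.963), and the 95% interval of the fold, 0.828 to 1.17, was the narrowest of the 10. Its sign turned with another scaling, to 0.058 with quantile normalization and to 0.0027 when the libraries were scaled by adipocyte markers. Quantile normalization moved the median of the 10 genes to 0.17, and none of the other signs turned with either scaling.

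The sign of several of these small differences rested on 1 mouse. Without control 5, Cd36 was at -0.078, Slc27a1 at -0.040 and Lmf1 at -0.056 on the log2 scale. Without AKO 3, Slc27a1 was at -0.032 and Lmf1 at -0.019, and without AKO 4, Cd36 was at -0.015, Gpihbp1 at -0.047 and Slc27a4 at 0.0036. Fabp5 was at -0.018 without control 3 and at -0.11 without AKO 5, and reached 0.64 without control 4. Lpl, Angptl4 and Fabp4 kept their sign with each mouse left out.

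The genes were also set against each other within a mouse, which takes the scaling between libraries out. An exact permutation test over 3 and 3 mice cannot give a two-sided p below 0.1, and p-values were adjusted over the 4 ratios. The log2 ratio of Angptl4 to Lpl, the inhibitor over the enzyme, was -2.79, -3.64 and -3.12 in control mice and -3.73, -4.32 and -4.57 in Ntsr2 AKO mice. The groups did not overlap, although control 4 and AKO 3 lay close together. The means differed by -1.02 on the log2 scale, a fold of 0.493 (exact permutation p = 0.1, the smallest possible; adjusted p = 0.4). The difference ranged from -1.26 to -0.83 with 1 mouse left out. That range does not cover the omission of control 5, AKO 4 and AKO 5 together, which was not tested for the ratio. Of the remaining mice, control 3 was at -2.79, control 4 at -3.64 and AKO 3 at -3.73. Without those muscle-bearing libraries the log2 fold change of each gene was smaller. It was -0.34 in place of -0.64 for Angptl4 and 0.17 in place of 0.38 for Lpl.

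The log2 ratio of Fabp5 to Fabp4 was -7.14 ± 0.48 in control and -7.16 ± 0.52 in Ntsr2 AKO mice (SD, n = 3 each; exact permutation p = 0.9). That of Slc27a1 to Slc27a4 was 4.29 ± 0.25 and 4.42 ± 0.29 (SD, n = 3 each; exact permutation p = 0.6). Gpihbp1 against the mean of 10 endothelial markers was 0.37 ± 0.23 and 0.64 ± 0.31 on the log2 scale (SD, n = 3 each; exact permutation p = 0.6). The groups overlapped for each of these 3 ratios.

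**Figure D4:**
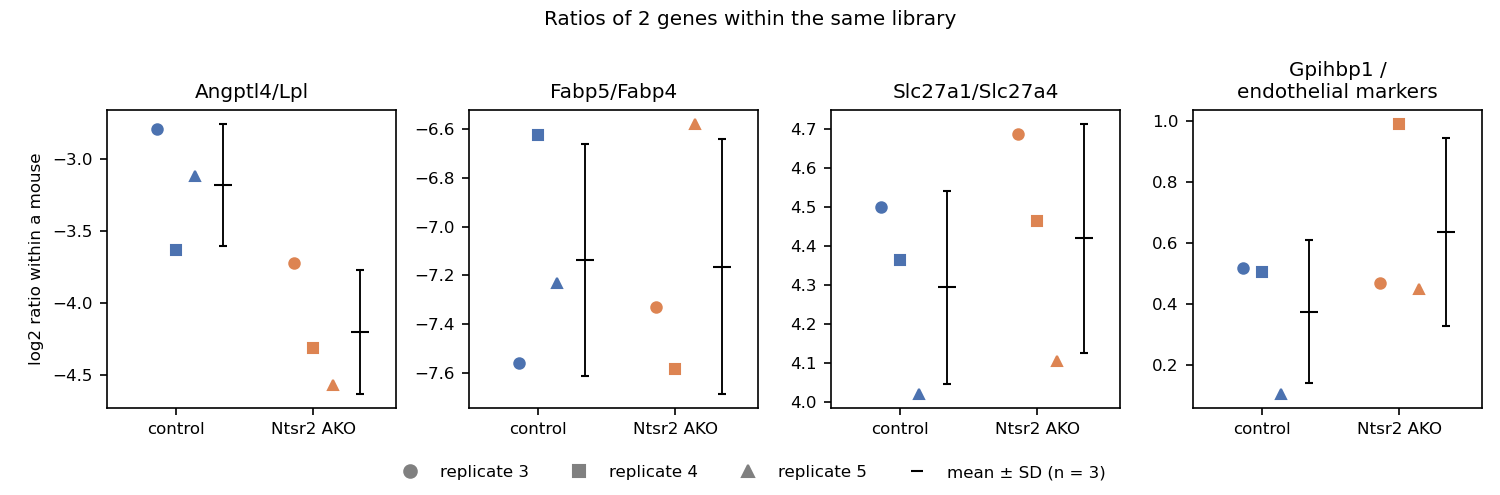
Log2 ratio of 2 genes, or of Gpihbp1 to the mean of the endothelial markers, within each mouse (y axis), by genotype, with the mean ± SD of 3 mice. The ratio of Angptl4 to Lpl lies between -3.64 and -2.79 in control mice and between -4.57 and -3.73 in Ntsr2 AKO mice, and the groups overlap for the other ratios.

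The profile of Lpl over the 6 mice was most like that of Odf3l1, followed by Crls1, the cardiolipin synthase of mitochondria, Spata2l, Med31, a Mediator subunit, and Dhrs7b. Likeness was the root mean square difference of log2 values after centring each gene on its own mean, and it was 0.048 for Odf3l1 and 0.077 for Dhrs7b among 12565 genes with a mean of at least 100. Of the 10 genes, Fabp4 was nearest to Lpl with a distance of 0.11 (rank 50) and Lmf1 next with 0.23 (rank 1717). Angptl4 (0.62, rank 10798) and Vldlr (0.71, rank 11314) were farthest from it. These distances are descriptions, and all rest on the same 6 libraries.

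Around the 10 genes, 70 further genes of the pathway were listed in 9 groups by role. Of these 66 were in the table and 64 were tested. None passed an adjusted p of 0.05 by limma or edgeR, where 0.00619% and 0% of all genes did. By DESeq2 2 of the 64, among them Sdc4, passed, where 1.38% of all genes did. At an unadjusted p under 0.05 there were 3 by limma, all lower in Ntsr2 AKO mice and among them Sdc4 and Zdhhc5, 3 by edgeR and 8 by DESeq2, against 5.27%, 8.19% and 10.6% of all genes. As shares of 64 genes, none of these counts at an unadjusted p stands far above that of all genes. The log2 fold changes had a median of -0.09, with 38 negative and 26 positive. Over all genes tested, 8236 were negative and 7921 positive. In 6 of the 64 all Ntsr2 AKO mice lay below all control mice and in 1 above, where 8.16% and 6.82% of all genes did, so the first count is near the background.

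The group for LPL maturation, surface binding and cleavage held Sdc4. Sdc4, the heparan sulfate proteoglycan syndecan-4 of the cell surface, had normalized counts of 19655, 8709 and 16580 in control mice and 6141, 2779 and 1539 in Ntsr2 AKO mice. The 2 genotypes did not overlap, with a log2 fold change of -2.25 ± 0.53 (SE). The adjusted p was 0.520 by limma and 0.004 by DESeq2. Among the libraries with few muscle transcripts, controls 3 and 4 had 19655 and 8709 and AKO 3 had 6141. The fold change without the other libraries was not computed. All 10 tested genes of this group had a negative sign, as did 8236 of the 16157 genes tested. The median of the group was -0.20, and no test was run over the group. Of the 10, 1 gene, Sdc4, had an unadjusted limma p under 0.05. Furin, a protease that cleaves LPL, had a log2 fold change of -0.44 (limma adjusted p = 0.594), and Sel1l, which takes part in the exit of LPL from the endoplasmic reticulum, one of -0.22 (limma adjusted p = 0.662).

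Among the lipoprotein receptors, Scarb1, the HDL receptor SR-BI, was at -0.43 (limma adjusted p = 0.600).

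None of the genes named from the remaining groups passed the threshold by any of the 3 tools. Zdhhc5, a palmitoyltransferase that acts on CD36, had 4201, 3874 and 4671 in control mice and 3687, 2807 and 2945 in Ntsr2 AKO mice, without overlap, at a log2 fold change of -0.44 (limma adjusted p = 0.557). Ptrf, the caveolar coat protein also called cavin-1, was at -0.38 (limma adjusted p = 0.698). Among the acyl-CoA synthetases, Acsl4 and Acsl3 were at -0.57 and -0.60 (limma adjusted p = 0.616 and 0.635), with the highest value of each in control 5. Of the lipases, Pnpla2, the triglyceride lipase of the lipid droplet, was at -0.23 and the lysosomal Lipa at -0.16.

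Among the cofactors and inhibitors of LPL, 5 of 7 had a positive sign, as did 49.0% of all genes tested. Apoc3, an inhibitor, had 24.8, 182.6 and 71.9 in control mice and 71.2, 129.6 and 279.3 in Ntsr2 AKO mice, and Apoc4 had 6.44, 35.1 and 11.5 against 0, 0 and 13.2. Both overlapped between the groups and rest on few reads. Of the further fatty acid carriers, the brain carrier Fabp7 was the 1 gene with all Ntsr2 AKO mice above all controls. Its values were 6.44, 14.4 and 13.4 against 29.9, 15.5 and 36.4 (log2 fold change 1.18, limma adjusted p = 0.638). They too rest on few reads, with control 4 and AKO 4 close together. Separation in this direction was found in 6.82% of all genes tested. Got2, a mitochondrial aminotransferase also described as a membrane fatty acid binding protein, was at -0.82 (limma adjusted p = 0.624), with 4291 in control 5 and 1108 to 1766 in the others. Fabp3, the muscle carrier, was 1333 in control 5, 130 and 125 in AKO 4 and AKO 5, and under 20 in the mice with few muscle transcripts.

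In the endothelial group, Flt1, a receptor for VEGF-B, was at -0.40 without overlap, and Meox2, a transcription factor of fatty acid transport in capillaries, at 0.38 (limma adjusted p = 0.616 and 0.775). Of the nuclear receptors that act on these genes, Ppard was at -0.47 and Nr1h2 at -0.16 (limma adjusted p = 0.600 and 0.762), and the signs of the group were split at 4 and 4. Pparg, which drives Lpl, Cd36 and Fabp4 in adipocytes, had 14326, 6535 and 4724 in control mice and 9602, 7987 and 7567 in Ntsr2 AKO mice, and was added to the genes named by rule. Its control mice spanned the range of the Ntsr2 AKO mice.

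**Figure D5:**
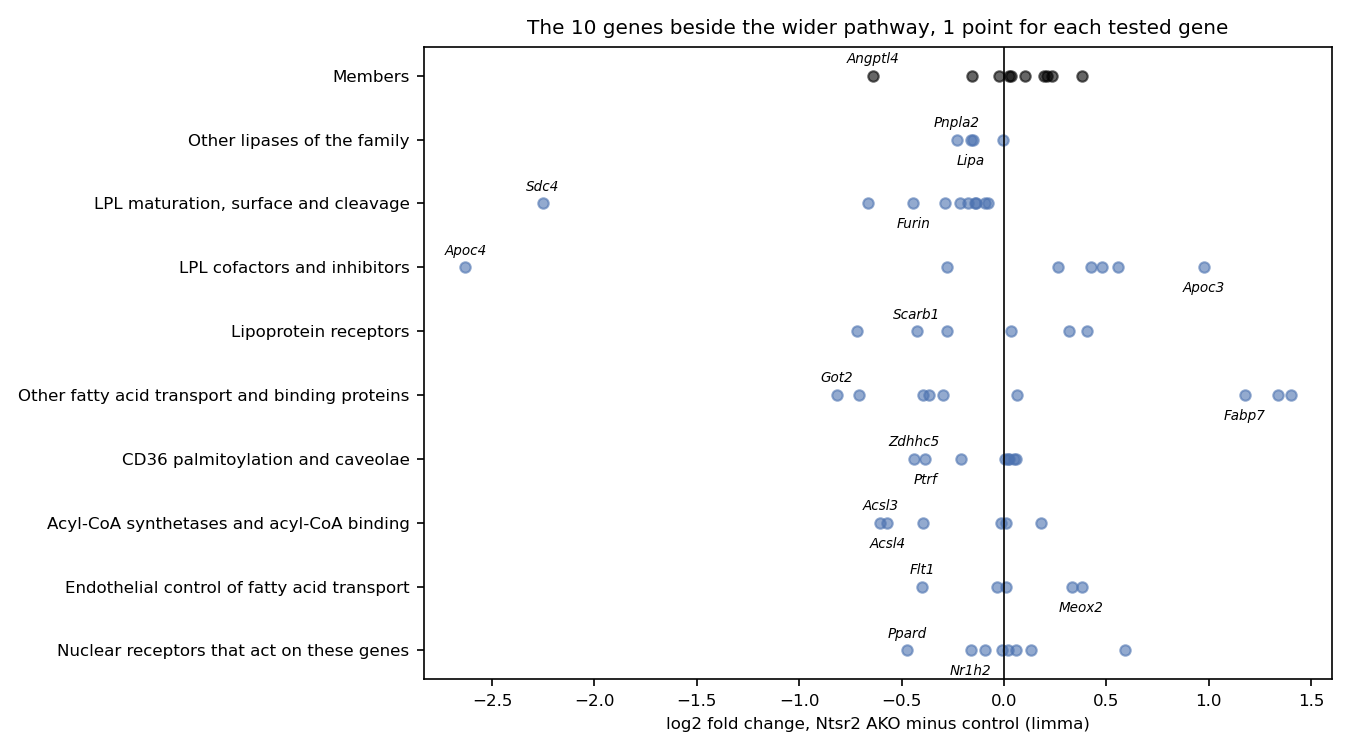
Log2 fold change, Ntsr2 AKO minus control (x axis), of the 10 genes and of 63 of the further genes tested, by role (y axis), with 1 point for each gene. In each further group the genes described in the text by smallest p are labelled, and Apoc4 and Sdc4 lie farthest to the left.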

How the data were processed

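The authors trimmed reads with Trimmomatic, aligned them with HISAT2, quantified genes with StringTie and used DESeq2, and the submitters' notes name mm10. The libraries were made from mRNA with a NEBNext Ultra kit. The deposited signal is a normalized count, a read count scaled by 1 size factor per library, and whole reads were recovered for 100% of values (tolerance 0.01). The scaling was inferred from the values. The annotation and the use of strand are not given in the sources used here.

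Genes with a mean of at least 10 were tested as log2(normalized count + 1) in R 4.3.3 with limma 3.58.1 (eBayes with a mean-variance trend, two-sided, Benjamini-Hochberg over 16157 genes). edgeR 4.0.16 (quasi-likelihood) and DESeq2 1.42.0 on the recovered reads were alternatives. Ratios were tested with scipy 1.17.1. Of these tests, the limma fit alone was tried on simulated data. All 10 genes are named. Of the wider list, the 2 genes of lowest p per group are named, except 1 that is not reported here, and Sel1l, Fabp3 and Pparg were added after their values were seen. The members and lists were chosen with earlier results of these data known. Adgre1, Angptl8, Cavin1 and Cavin2 were matched by older symbols. Depth was at least 54085088 recovered reads per library.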

Additional observations from a re-analysis of the deposited data

How the results depend on the processing

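None of the 10 genes passed the threshold under any of 18 alternatives, and their median log2 fold change stayed between -0.05 and 0.17. Lpl and Angptl4 kept their sign in all 18. Over all genes, the 1 gene called by limma became 0 with no filter, with adipocyte marker scaling, without the mean-variance trend, with a skeletal muscle score as covariate, with edgeR, with each mouse left out and without the 3 mice with most muscle transcripts, and 219 with DESeq2, which called 2 genes of the wider list where limma called 0.

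With 1 mouse left out, the signs of 7 genes turned. Their log2 fold changes then ranged from -0.12 to 0.42 for Gpihbp1, -0.056 to 0.11 for Lmf1, -0.48 to 0.34 for Vldlr, -0.078 to 0.12 for Cd36, -0.11 to 0.64 for Fabp5, -0.040 to 0.23 for Slc27a1 and -0.051 to 0.0036 for Slc27a4. Slc27a4 also turned to 0.058 with quantile normalization and 0.0027 with adipocyte marker scaling. Without the 3 mice with most muscle transcripts, an alternative chosen after seeing the data, Gpihbp1 was at -0.15, Vldlr at 0.35, Cd36 at -0.07, Fabp4 at -0.10 and Fabp5 at -0.34. The ratio of Fabp5 to Fabp4 ranged from -0.32 to 0.23 and that of Slc27a1 to Slc27a4 from -0.012 to 0.28 with 1 mouse left out. The cause of these shifts was not tested.

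With the replicate number as a block limma called 0 genes, and it changed the call of none of the 10. The deviations of same-numbered mice correlated at 0.45, -0.24 and 0.41, and those of differently numbered mice at -0.52 to 0.26. These values do not settle whether the numbers are pairs. The labels do not state a pairing, and the main fit used none. The effect of depth and of the number of mice on the intervals was not tested.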
